A study of Mus musculus with 4 samples.

Results

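Gm12680, 1110032F04Rik, AI593442, 1190002N15Rik, 2900072G11Rik, 5330406M23Rik, AI504432 and 2700046A07Rik are 8 transcripts that carried no descriptive name on the array used here, out of 29924 gene names on it. They were picked because of their response to IWP-2 on these same arrays, so their own ratios are a description and carry no test. All probes bearing one of the names were taken, which gave 12 probes. RNA came from whole ureters of wildtype NMRI mouse embryos of stage E12.5, sex not determined, that were explanted and kept for 18 h either with 10 µM IWP-2 or with DMSO, the solvent, as control. Each of 4 two-colour arrays compared 1 pool of treated with 1 pool of control ureters, and the treated pool was labelled red on arrays 1 and 3 and green on arrays 2 and 4. Nothing in the labels says that the numbered pools were kept apart throughout, so p-values measure the spread between these arrays. The tissue was not separated into cell types, and fewer cells of a type cannot be told apart from less RNA per cell.

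IWP-2 blocks Porcupine, the acyltransferase that WNT ligands need to leave the cell, and is used to lower WNT signalling in the whole explant. Many loci of the mouse genome also give rise to long non-coding RNAs or to transcripts known only from cDNA clones. Such transcripts can be independent units, extensions of a nearby gene or products of an enhancer, and a change of neighbouring genes beside them is therefore of interest. Axin2, a feedback inhibitor of the pathway and its common readout, fell by 1.56 ± 0.09 (SD, n = 4 arrays) on the log2 scale (limma, adjusted p = 1.23e-05).

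RefSeq held 5 of the 8 names. It lists 1110032F04Rik, AI593442 and 1190002N15Rik as protein coding, the last under the symbol Dipk2a, a divergent protein kinase domain protein of the secretory pathway. AI504432 and 2700046A07Rik are listed as long non-coding RNAs. Gm12680, 2900072G11Rik and 5330406M23Rik had no entry, and the array files describe them as full-length cDNA clones of adult retina, hippocampus and pituitary gland without a classified product. For these and for AI504432 the 60-base probe is what was measured, and each is shown 5′ to 3′ because it defines the transcript more firmly than its name. Positions are on the mm9 build and come from the array design. Capitals in the AI504432 pair mark the 55 bases that its probes share, which start 5 bases apart, so they are close to 1 measurement.
Gm12680 (chr4:85428217-85428276, plus strand): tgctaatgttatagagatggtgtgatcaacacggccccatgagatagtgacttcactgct
2900072G11Rik (chr2:14626282-14626341, plus strand): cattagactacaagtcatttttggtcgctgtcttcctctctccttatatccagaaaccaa
5330406M23Rik (chr6:31058877-31058936, minus strand): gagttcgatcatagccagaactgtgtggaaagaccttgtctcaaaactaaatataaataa
AI504432 (chr3:106854011-106854070, plus strand): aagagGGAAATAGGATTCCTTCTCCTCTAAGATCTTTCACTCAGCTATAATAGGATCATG
AI504432 (chr3:106854016-106854075, plus strand): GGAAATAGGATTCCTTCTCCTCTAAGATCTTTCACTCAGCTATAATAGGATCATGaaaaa

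The longest run of bases that any of these 5 probes shared with a probe of another gene was 16, for 5330406M23Rik with 3 other probes. The other members' probes lay at chr3:68676000-68676059 for 1110032F04Rik, at chr9:52481329-52481388 and chr9:52484029-52484088 for AI593442, at chr9:94418418-94418477 and chr9:94420673-94420732 for 1190002N15Rik, and at chr18:62914687-62914746 and chr18:62911374-62911433 for 2700046A07Rik.

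All 12 probes were well above background in the control pool of every array, and 11 of them in the treated pool as well. In none of the 12 did the control and the treated intensities overlap. The share of all probes on the array without such overlap was not counted, so this is a description only. Of the 8 transcripts, 2 were higher and 6 were lower after IWP-2. Across the array, 33.1% of 22461 genes tested passed an adjusted p of 0.05 in limma and 0.908% also changed at least 2-fold. Nothing is read from the members against these shares, because the members were chosen on this contrast. Array replicates were tighter for some members than for others. The SD of the 4 log2 ratios ran from 0.09 for 1190002N15Rik to 0.42 for AI593442, whereas replicate spots of a member probe within 1 array had an SD of 0.01 to 0.17.

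Gm12680 showed the largest rise of all 22461 genes tested. Its normalised intensity in control pools 1 to 4 was 175.4, 140.7, 162.4 and 133.2. In the treated pools it was 788.8, 809.0, 762.4 and 766.2, so the lowest treated value was more than 4 times the highest control value. The log2 ratio of treated over control was 2.17, 2.52, 2.23 and 2.52, with a mean of 2.36 ± 0.19, a 5.14-fold increase. The ratio was higher on both arrays with the treated pool in green. From the scanner software's processed signals, in place of normexp and loess, the mean log2 ratio was 3.19.

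1110032F04Rik was the other transcript that was higher, and it ranked 7 among all rises. Control intensities were 1451, 1212, 1347 and 1315 on arrays 1 to 4. Treated intensities were 3459, 3308, 3363 and 3768. The mean log2 ratio was 1.39 ± 0.12, or 2.61-fold, with every array between 1.25 and 1.52.

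After normexp and loess, the strongest losses among the members were those of AI593442, a coding gene, and the clone 2900072G11Rik, and which of them lost more was not settled beyond the spread of the arrays. Control intensities of AI593442 were 2613, 2116, 2845 and 2647 on arrays 1 to 4. After IWP-2 they were 439.3, 699.9, 560.9 and 556.5. Array 2 held both the lowest control and the highest treated value, and its log2 ratio of -1.60 stood above those of arrays 1, 3 and 4, which were -2.57, -2.34 and -2.25. The mean was -2.19 ± 0.42, a 4.56-fold reduction. The other probe of AI593442 gave -1.59 ± 0.28.

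1190002N15Rik (Dipk2a) lost the least among the members, with the least spread. Control intensities were 19160, 15800, 17740 and 18250, and treated intensities were 8418, 7904, 7812 and 8556. The mean log2 ratio was -1.12 ± 0.09, a 2.17-fold reduction, and array 2 stayed just short of 2-fold at -0.999. The other probe of the gene gave -1.03 ± 0.10, so both positions in the transcript were reduced to a similar extent.

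Compared with AI593442, the log2 ratios of the cDNA clone 2900072G11Rik lay closer together. Its control intensities were 9181, 5490, 7478 and 7185, and its treated intensities were 2242, 1528, 1471 and 1549. Array 1 was the brightest in both pools, yet its ratio of -2.03 lay within those of the other arrays, at -1.85, -2.35 and -2.21. The mean log2 ratio was -2.11 ± 0.22, or 4.32-fold. For 5330406M23Rik, control intensities of 1772, 1777, 1667 and 1495 stood against treated intensities of 623.6, 474.2, 498.0 and 561.1. Its log2 ratios of -1.51, -1.91, -1.74 and -1.41 averaged -1.64 ± 0.22, a 3.12-fold reduction, and did not sort by dye.

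Both long non-coding RNAs were lower after IWP-2. AI504432 had control intensities of 593.4, 503.2, 615.2 and 537.7 and treated intensities of 226.9, 245.9, 189.7 and 216.7. The mean log2 ratio was -1.36 ± 0.27, or 2.56-fold, and the overlapping probe gave -1.33 ± 0.24. 2700046A07Rik had control intensities of 266.6, 303.3, 250.3 and 297.7 and treated intensities of 120.6, 103.8, 112.0 and 111.6. These values are from the probe that was slightly brighter over both pools together, and its log2 ratio was -1.32 ± 0.20, or 2.49-fold. The probe 3.31 kb downstream on the same strand was the brighter one in the control pools, at 351.1, 300.2, 319.1 and 406.4. It gave -2.0 ± 0.13, but was well above background in the treated pool of only 1 of 4 arrays, so the size of its loss is poorly bounded. From the processed signals the first probe gave -2.39, so the size of this loss depended on the background correction too. No member had a dye effect that passed limma's test (adjusted p from 0.158 to 0.930).

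**Figure D1:**
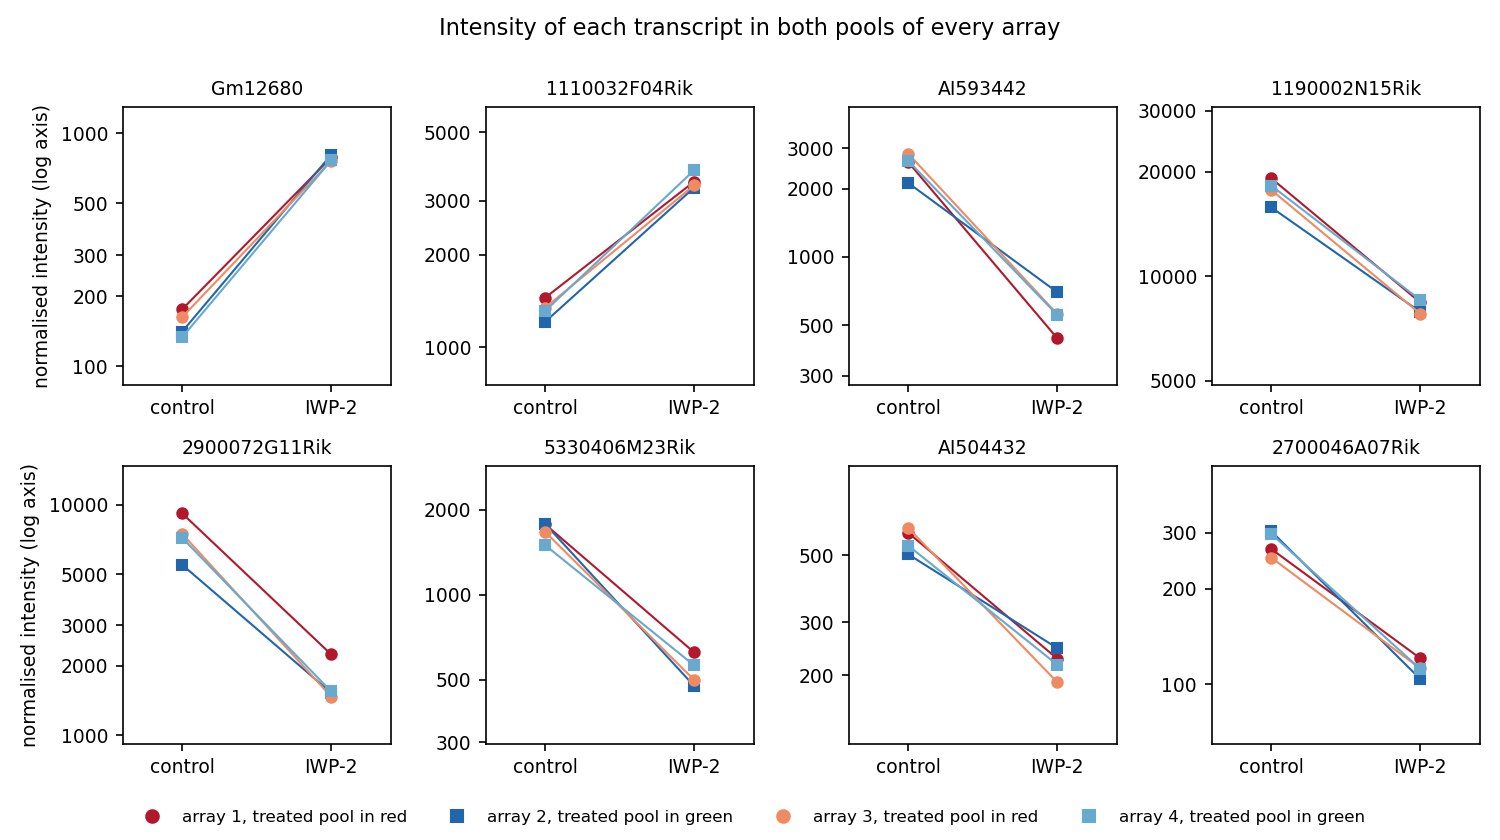
Normalised intensity (log axis, its range set for each transcript) in the control and the IWP-2 pool of each array, joined by a line per array; circles mark arrays with the treated pool in red and squares those with it in green. All lines of Gm12680 and 1110032F04Rik rise, all lines of the other 6 fall, and in no panel do the pools overlap.

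**Figure D2:**
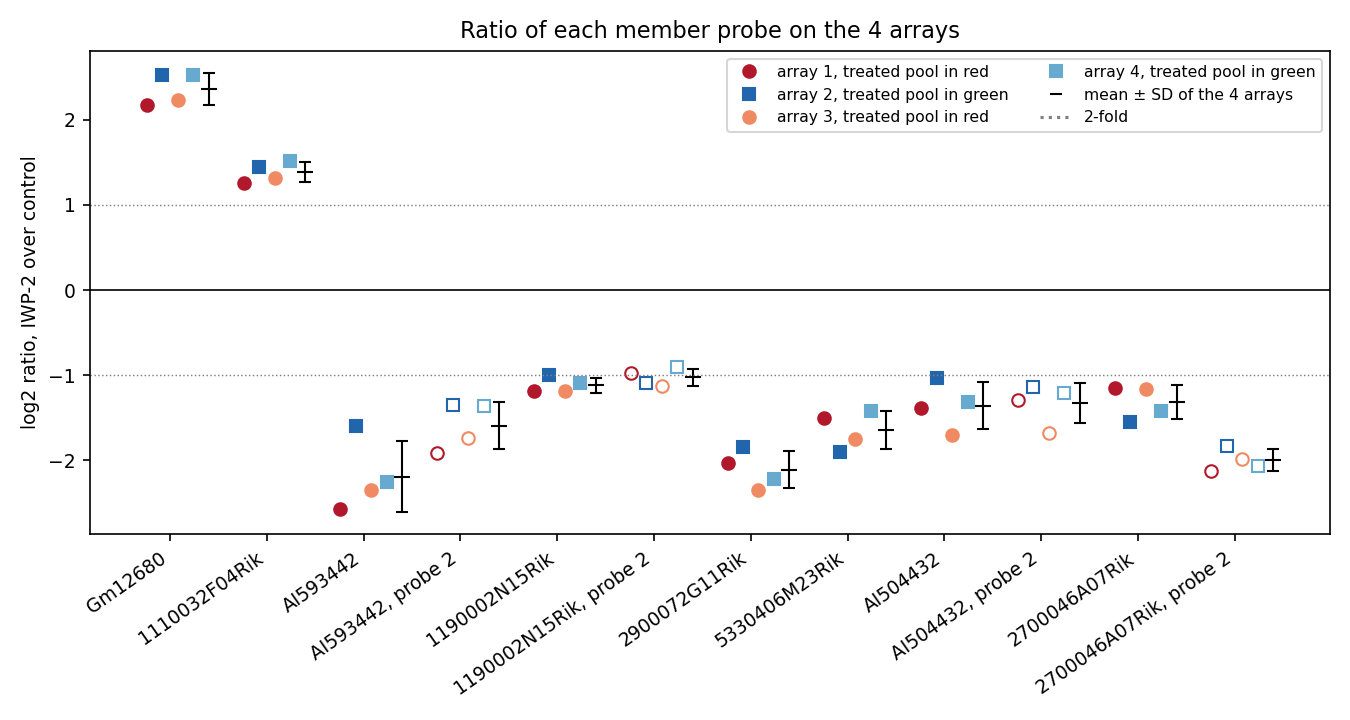
Log2 ratio of IWP-2 over control on each array for the 12 probes, with filled symbols for the probe of a transcript that was brightest over both pools, open symbols for its other probe, and a bar for the mean ± SD of 4 arrays. AI593442 shows the widest spread, from -2.57 to -1.60, and the probes of 2700046A07Rik stand apart from each other, with means of -1.32 and -2.0.

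As a class, names of this kind were measured less often. Of 4618 such names on the array (ending in Rik, Gm followed by digits, or 2 capital letters followed by 6 digits), 2842 had a probe above background, or 61.5%, against 81.7% of the 19521 other named genes. Among those tested, 383 were lower and 460 were higher, which is 29.7%, against 35.7% of the other named genes. At least 2-fold changes were seen for 15 that fell and 2 that rose, the 8 members among them, which is 0.598% against 1.12% of the other named genes. The class was also dimmer, with a median log2 intensity of 8.36 against 11.72, and the part of this in the shares was not tested. The 9 genes past 2-fold that are not members were Gm3014, 5730457N03Rik, 4930432J09Rik, 6030408B16Rik, 2610035D17Rik, 1700038P13Rik, Gm9908, 2010204K13Rik and F730043M19Rik, with log2 ratios from -1.38 to -1.03. Size alone thus did not set the members apart, since 5 of the 9 had a larger loss than 1190002N15Rik.

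To ask whether the surroundings moved too, the 2 nearest named and tested genes on each side of a member were taken by position alone. Of these 32 genes, 11 rose and 8 fell in limma's test, which is 59.4% against 33.1% of all genes tested. At least 2-fold changes were seen for 5, which is 15.6% against 0.908%. The neighbours all carry a name, and among named genes without the uncharacterised ones the shares were 35.7% and 1.12%. Rn4.5s, whose probe is not specific to its locus, and Cacnb2, which has probes on both sides of its member, are counted here. In the deposited table of rounded fold changes 8 of the 32 passed the test, where 17.3% of all genes passed. The count past 2-fold was 4 to 6 across the alternatives tried, with 6 from the processed signals, where Kcna2 was added, and 4 from the mean of all probes of a gene, where Adamtsl1 dropped to 0.93. With 1 gene per side, 13 of 16 passed the test and 4 of them changed at least 2-fold. All 5 genes past 2-fold moved the way their member did. Over all 32 the direction was mixed, as 19 had the sign of their member and 13 of these passed the test. The typical size was small, with a median absolute log2 ratio of 0.17 among neighbours and 0.10 among all genes tested.

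AI504432 had the nearest of these neighbours. Kcna3, which encodes a voltage-gated potassium channel, was probed 13.1 kb away on the same strand, and RefSeq places the RNA between Kcna3 and its paralogue Kcna2. Kcna3 control intensities were 832.8, 984.4, 918.4 and 835.7 and treated intensities were 355.8, 315.7, 345.1 and 314.3, without overlap. It fell by 1.42 ± 0.17 on the log2 scale (limma, adjusted p = 2.87e-05). Kcna2, 55.7 kb to the other side, fell by 0.27 ± 0.14 (adjusted p = 0.00793). Kcna2 was dim, with control intensities of 112.4 to 117.0, and its size depended on the processing, as the processed signals gave -1.01 and the deposited table gave 0 (adjusted p = 1). Farther out, Cd53, a tetraspanin of leukocytes, rose by 0.16 ± 0.09 (adjusted p = 0.0453), and Cym, the gene of chymosin, had 0.04 ± 0.08 (adjusted p = 0.537).

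5330406M23Rik lay 56.6 kb from Lincpint, a long non-coding RNA known as a p53-induced transcript, and both are read from the minus strand. Lincpint control intensities were 875.5, 896.6, 865.2 and 744.8 and treated intensities were 304.7, 264.8, 233.7 and 249.4. The log2 ratio was -1.69 ± 0.17 (adjusted p = 3.21e-05), close to the -1.64 of the member, and the other Lincpint probes gave -1.60 and -1.17. Other genes around the locus moved less or not at all. Klf14, a Krüppel-like transcription factor gene 153 kb away, fell by 0.41 ± 0.17 (adjusted p = 0.00411), and Mkln1, the gene of muskelin, fell by 0.24 ± 0.09 at 384 kb (adjusted p = 0.00545). 4930412F09Rik, at 165 kb, had 0.14 ± 0.14 and did not pass the test.

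2900072G11Rik sat between probes of Cacnb2, a regulatory subunit of voltage-gated calcium channels, all on the plus strand. Cacnb2 control intensities were 800.3, 548.6, 607.8 and 651.7 and treated intensities were 237.3, 172.3, 194.0 and 206.0 at the brightest probe, 282 kb downstream. Its log2 ratio was -1.68 ± 0.05 (adjusted p = 7.33e-06), and a further downstream probe gave -1.14 ± 0.11. The Cacnb2 probe upstream of 2900072G11Rik was not above background and gave -0.15. An unnamed cDNA 5.62 kb downstream fell by 0.70 ± 0.33 (adjusted p = 0.000222), and Gm13315, 16.9 kb downstream, fell by 0.19 ± 0.07 (adjusted p = 0.0176). Gm10848, nearer still on the opposite strand, was not above background. On the far side, Mrc1, the macrophage mannose receptor gene, rose by 0.16 ± 0.09 (adjusted p = 0.0457), and Stam had 0.07 ± 0.11.

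2700046A07Rik had Apcdd1, which encodes a membrane-bound inhibitor of WNT signalling, as its nearest tested neighbour at higher coordinates, 198 kb away and on the opposite strand. Apcdd1 control intensities were 2706, 3380, 3069 and 2951 and treated intensities were 897.4, 889.9, 1010 and 874.2. It fell by 1.72 ± 0.16 on the log2 scale (adjusted p = 8.27e-06). Which of the gene and the member lost more turned with the background correction, since the processed signals gave -1.78 for Apcdd1 and -2.39 for 2700046A07Rik. Napg, the next gene at 244 kb, had 0.02 ± 0.05 and did not pass the test, and neither did Spink10, with -0.06 ± 0.08. Spink7, a serine peptidase inhibitor gene, rose by 0.20 ± 0.16 (adjusted p = 0.0477).

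The locus of Gm12680 was the only one of the 8 where a neighbour rose at least 2-fold. Adamtsl1, the gene of a secreted ADAMTS-like matrix protein, had control intensities of 2028, 2174, 2462 and 2169 and treated intensities of 4545, 5922, 5548 and 4746. Its log2 ratio was 1.23 ± 0.15 at the brightest probe, 646 kb away on the same strand (adjusted p = 5.41e-05). The 2 Adamtsl1 probes nearer to Gm12680, which start at chr4:85845401 and chr4:85898689, gave 0.83 ± 0.15 and 0.73 ± 0.05. Saxo1, a stabiliser of axonemal microtubules, rose by 0.49 ± 0.11 (adjusted p = 0.000539), and Sh3gl2, the gene of endophilin A1, rose by 0.48 ± 0.03 (adjusted p = 0.000409). Cntln, 651 kb away, had 0.08 ± 0.16 (adjusted p = 0.313).

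The 3 coding members differed from these loci in that no neighbour changed 2-fold; this contrast between loci was not tested. Around AI593442 none of the 4 neighbours passed the test, with log2 ratios of -0.16 for Rdx, 0.01 for Zc3h12c, -0.12 for Gm1715 and -0.05 for Ddx10, although AI593442 itself was reduced 4.56-fold and RefSeq lists Gm1715 as overlapping it. Around 1110032F04Rik the intraflagellar transport gene Ift80, 20.6 kb away, had -0.03 ± 0.12 and the condensin gene Smc4 had -0.09 ± 0.11, neither past the test. Mfsd1 rose by 0.19 ± 0.05 (adjusted p = 0.0158) and Schip1 by 0.16 ± 0.14 (adjusted p = 0.0371). Within 50 kb of 1110032F04Rik, an unnamed transcript on the opposite strand rose by 0.40 ± 0.30 (adjusted p = 0.00568) and another fell by 0.26 ± 0.05 (adjusted p = 0.00356). Around 1190002N15Rik 3 genes rose while the member was lower. Plscr4, a phospholipid scramblase gene, rose by 0.48 ± 0.11 at 2030 kb (adjusted p = 0.00133), and the lysyl hydroxylase gene Plod2 by 0.29 ± 0.30 at 1920 kb (adjusted p = 0.0139). Rn4.5s, a small RNA with many copies so that its probe is not specific to this locus, rose by 0.18 ± 0.04 (adjusted p = 0.0145). Slc9a9, a sodium and proton exchanger gene, had -0.13 ± 0.15.

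**Figure D3:**
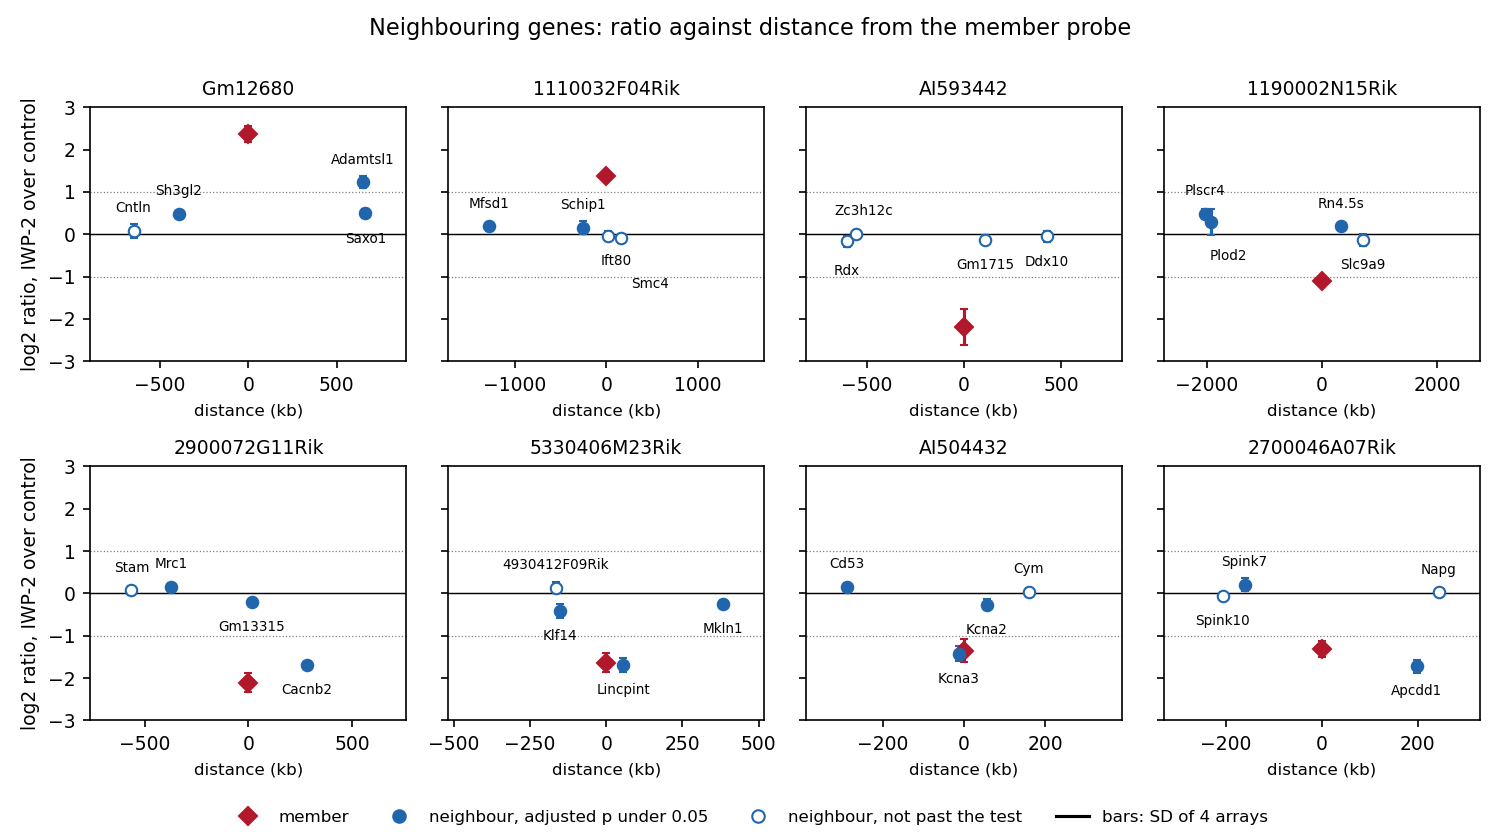
Mean log2 ratio (bars, SD of 4 arrays) of each member (diamond, at 0) and of its 2 nearest named and tested genes on either side (circles) against distance in kb; filled circles passed limma's test and dotted lines mark 2-fold. Cacnb2, Lincpint, Kcna3 and Apcdd1 lie below the lower dotted line beside members that were lower, Adamtsl1 lies above the upper one, and the neighbours of AI593442 lie near 0.

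**Figure D4:**
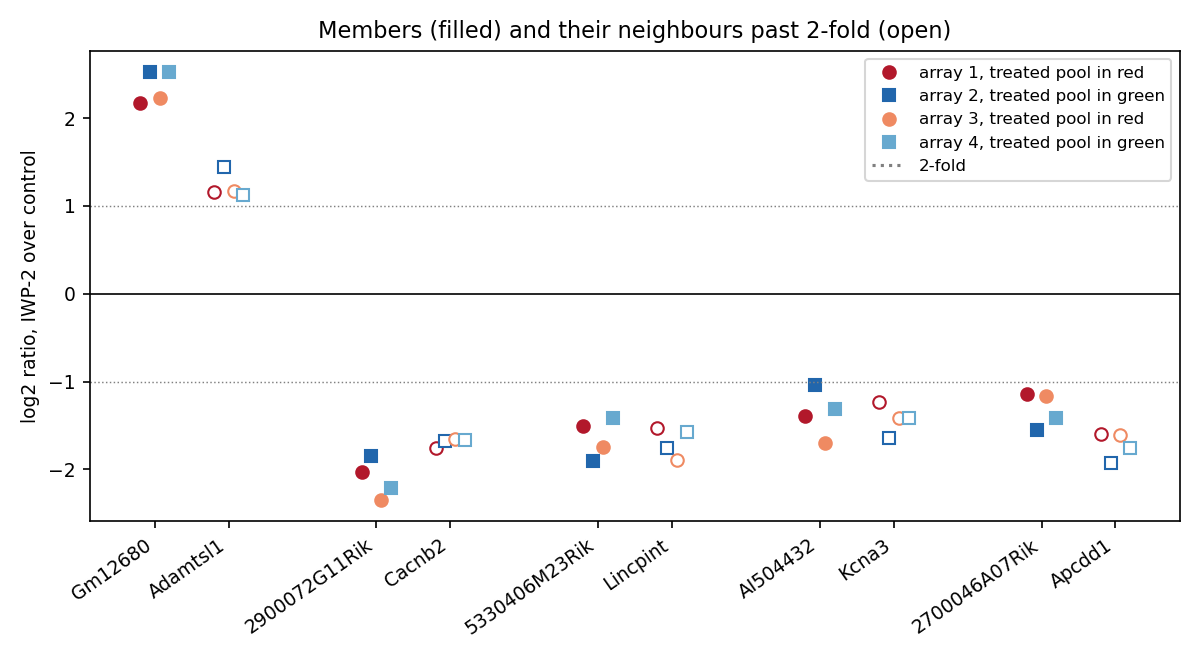
Log2 ratio on each of the 4 arrays for the 5 members with a neighbour past 2-fold (filled) and that neighbour (open). Every pair lies on 1 side of 0 on all arrays, from 1.13 to 2.52 for Gm12680 and Adamtsl1 and from -2.35 to -1.03 for the 4 pairs that were lower.

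In a wider window of 500 kb, 44 named genes were tested, of which 11 fell and 9 rose (45.5%, against 33.1% of all genes tested). Of the 44, 4 changed at least 2-fold (9.09%, against 0.908%). Among named genes without the uncharacterised ones these shares were 35.7% and 1.12%. These 4 were Cacnb2, Lincpint, Kcna3 and Apcdd1, 1 at each of 4 loci. Adamtsl1 was not counted, because its brightest probe lay 646 kb from Gm12680, although other probes of the gene lay inside the window. The largest rise was that of Piezo2, a mechanically gated channel gene near 2700046A07Rik, at 0.64. Every member changed at least 2-fold, at these 4 loci and at the others alike, and members were picked for their response. Members and unnamed transcripts were not counted in this window. Whether whole stretches of a chromosome moved was not tested. Around 5330406M23Rik 6 of 11 genes fell and none rose (54.5%). Around AI504432 2 of 12 fell and 2 rose (33.3%), close to the share of all genes tested.

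For each member the gene with the most similar 4 ratios was also sought, by Euclidean distance over the 4 arrays on the log2 scale. Mylip, an E3 ubiquitin ligase gene, was nearest to 1190002N15Rik at a distance of 0.074. Krt84, a hair keratin gene, was nearest to 2700046A07Rik at 0.138, the corepressor gene Hr to 5330406M23Rik at 0.167, Bhlhe22, a transcription factor gene, to 1110032F04Rik at 0.192, Lrriq1 to 2900072G11Rik at 0.224, Mageb16 to AI504432 at 0.274 and Nrip3 to AI593442 at 0.316. Within 2 times the distance of the nearest gene, and counting it, lay 1 gene for 1190002N15Rik and AI593442, 11 for 2700046A07Rik and 22 for AI504432. For 1190002N15Rik and AI593442 no other gene lay within that limit. The limit is set by each member's own nearest distance, so these counts cannot be compared between members. Gm12680 had no close match, as Tcerg1l was nearest at a distance of 1.122 with a mean log2 ratio of 1.84.

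Markers of tissues that the explants could hold were all above background. The epithelial list (Epcam, Cdh1, keratins and claudins) rose in 7 of 7 genes, by 0.24 to 0.34 on the log2 scale. Of 6 markers of ureteric mesenchyme, Pdgfrb rose by 0.80 and Tbx18 fell by 0.74. Nephron progenitor markers rose in 5 of 6 and fell in 1, from -0.96 for Crym to 1.14 for Six2. Endothelial and blood markers rose in 4 of 6 each, by at most 0.37, and 2 of 6 neural crest markers rose. The part of these shifts in the members' ratios was not tested.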

How the data were processed

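Per the file headers, the authors scanned 4 Agilent two-colour arrays with all hybridisations on 1 slide, and Agilent Feature Extraction 10.7.3.1, as named in the submitters' processing notes, gave raw and processed intensities and a log10 ratio (deposited, not used for results). Processed intensities were background-subtracted, spatially detrended and dye-normalised by the authors' software. The deposited series table gives signed fold changes, a score with 1 decimal made by an unstated normalisation. Its direction followed the processed signals (r from 0.988 to 0.9922). Here raw mean intensities were corrected by normexp (offset 50, all spots) and loess (control spots at weight 0), outlier spots were left out (3.01 to 3.38%; no spot was saturated), and the 4 spots of a probe were averaged (limma 3.58.1, R 4.3.3). Aquantile was added for the intensities printed. The brightest probe that was well above background on all 4 arrays of a pool stood for a gene. A dye term and the treatment were fitted with lmFit and eBayes, two-sided, with Benjamini-Hochberg adjustment over 22461 genes. The number of arrays limits the precision. Between 75.1 and 80.0% of probes were above background per pool. The fit was tested on simulated data.

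The members and gene lists were chosen with earlier results of these data known. Genes named are the members, the 2 nearest named tested genes on either side, every array gene within 50000 bases, the gene of most similar ratios, other uncharacterised names past 2-fold, Axin2 and marker lists. Probe strand was that of the RefSeq (GRCm38.p6) promoter for 99.4% of 23960 probes. RefSeq coordinates served only to name the genes that overlap or flank a member in RefSeq, and no distance was taken from them. A930002I21Rik, 46.3 kb from AI504432, was not above background. Other normalisations, filters, neighbour definitions and each array left out were tried as alternatives.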

Additional observations from a re-analysis of the deposited data

Results flagged for a closer look

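In 44 sets of 4 array ratios (12 member probes and 32 neighbours), the gap of 1 array from the other 3 was unusually wide in 2, about the rate of 1 in 20 that chance gives. Adamtsl1, beside Gm12680, had a log2 ratio of 1.445 on array 2 against 1.13 to 1.172 on the others. Klf14, beside 5330406M23Rik, had -0.167 on array 1 against -0.519 to -0.469 on the others. No probe of a member was singled out in this way.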

How the results depend on the processing

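No member changed sign under any alternative that was run. Aquantile and leaving out the dye term cannot alter these ratios, and averaging probes cannot for a member with 1 probe. Other filters did not alter them, since the same probe stood for each member. With such values counted as unmoved, 117 of 126 member values moved by less than 1 SD of the 4 arrays. The other 9 moved by more, all of them away from 0. The widest were Gm12680, at 3.19 from Feature Extraction's processed signals, 3.18 from the deposited table and 2.67 with a normexp offset of 16, and 2700046A07Rik, at -2.39, -2.05 and -1.67 in the same order and -1.66 as the mean of its probes; AI504432 reached -1.73 in both of the first 2. Neither AI504432 nor 2700046A07Rik passes a mean processed signal of 100. No neighbour past the test changed sign; 50 of 502 neighbour values lost the call and 6 gained it. Adamtsl1, Cacnb2, Lincpint, Kcna3 and Apcdd1 passed the test in every alternative that tested them, whereas Schip1, Mrc1, Cd53 and Spink7 lost it in 7 or more of 13 or 14.

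The count of neighbours past the test, 19 of 32, was 8 in the deposited table, where all genes past the test were 3882 instead of 7429 (counted as an addition chosen after seeing the data), and 12 without a filter, which admits dimmer genes as neighbours. Of all genes, 25.1% passed without a filter. Leaving out single arrays gave 13 to 19 neighbours past the test, where 22.5 to 26.2% of all genes passed. Those past 2-fold were 5, and 4 without a filter, with a mean signal over 100 or with all probes averaged, and 6 with processed signals. Uncharacterised names past 2-fold, 17 in all, were 36 with processed signals. A filter with the study's cut-offs, intensity over 100 and over 2-fold on each array, left 5. It was applied to the normexp and loess ratios of genes above background, not to the authors' normalised values. Those 5 were all members, which were picked for this response. A block for slide or scan could not be fitted because 1 slide held all 4 arrays. Dim probes bound their ratios least well: the second probe of 2700046A07Rik was above background on 1 treated array.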
